A study of Mus musculus with 2 samples.

Results

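The genes described here were the 3 Runx transcription factors, *Runx1*, *Runx2* and *Runx3*, and *Cbfb*, which encodes their shared partner CBFβ. They were chosen by name as a gene family, and they are 4 of the 28692 genes listed in both droplet libraries. The levels below come from mouse cells of a culture experiment, with 1788 cells kept in the library FL001 and 4100 cells kept in FL002.

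Both libraries were made from wild type CD1 embryos at E13.5. Fetal liver cells were depleted of TER-119+ cells, and Sca-1+ cKit+ hematopoietic stem and progenitor cells (HSPCs) were sorted and cultured on plates coated with 10 μg/mL of DL4, a ligand of Notch receptors, and 2.32 μg/mL of VCAM-1, an adhesion molecule. The study pooled cells captured directly after the sort with cells captured after different times in culture. Which of these times each library held was not given in the sources used here, so no day was assigned to a cell. The labels give both libraries the same treatment, neither library is a control, and nothing says whether they came from separate litters or cultures.

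Runx proteins bind DNA through a domain called Runt, and CBFβ, which does not bind DNA itself, strengthens that binding. *Runx1* is required for the first blood stem cells of the embryo and acts in many blood lineages. *Runx2* is best known as the regulator of bone formation and is also found in blood progenitors. *Runx3* is known for its roles in CD8 T cells, natural killer cells and other innate lymphoid cells, and *Runx1* and *Runx3* overlap in function in early T-cell development.

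The files give 1 Ensembl gene for each member, ENSMUSG00000022952 for *Runx1*, ENSMUSG00000039153 for *Runx2*, ENSMUSG00000070691 for *Runx3* and ENSMUSG00000031885 for *Cbfb*. In the GENCODE annotation of GRCm38, *Runx1* lies on the minus strand at chr16:92601466-92826149 and *Runx2* on the minus strand at chr17:44495987-44814797. *Runx3* lies on the plus strand at chr4:135120652-135177990 and *Cbfb* on the plus strand at chr8:105170674-105217989. The labels name mm9 as the build of the files, so these positions serve only to place the genes.

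The start sites of the 3 Runx genes share a short sequence, shown here because it is the motif of the family itself. RefSeq windows of GRCm38.p6, each 300 bases long with 250 bases before a start site, were searched for ACCACA and its reverse complement TGTGGT, the core letters of the Runx motif. *Runx1* and *Runx3* had 2 windows each, *Runx2* and *Cbfb* had 1. In the first, distal window of *Runx1* and *Runx3* and in the only window of *Runx2*, 2 copies of ACCACA stood on the gene's strand with their starts 8 bases apart. The 3 stretches are printed 5′ to 3′ on the strand of the gene, with both copies in capitals.
Runx1: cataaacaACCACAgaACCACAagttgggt
Runx2: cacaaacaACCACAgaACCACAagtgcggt
Runx3: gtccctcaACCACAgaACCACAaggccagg
The *Runx1* stretch is at chr16:92826025-92826054 and lies within an untranslated part of an exon, with the copies at bases 29 to 42 counted from the start. That of *Runx2* is at chr17:44814583-44814612, with the copies at bases 24 to 37, and GENCODE transcripts there differ in calling it untranslated or coding. The *Runx3* stretch is at chr4:135120503-135120532, with the copies 134 to 121 bases before the start, outside the annotated gene. Of 32851 promoter windows, 5506 (16.8%) held at least 1 of the 2 searched hexamers, and 7 (0.0213%) held 2 copies on 1 strand at this spacing, the 3 Runx windows among them. The second windows of *Runx1* and *Runx3* and the window of *Cbfb* held none of the hexamers. These are matches of letters, and the 3′ tags of these libraries do not show which promoter was used.

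UMIs (unique molecular identifiers, counts of captured transcripts) were summed over the cells of a gate and divided by the gate's total, giving CPM (counts per 1000000 UMIs). A gate is a set of cells defined by raw UMIs of other genes, and each is called by its genes. The *Lmo2*/*Mef2c* gate held cells with at least 2 UMIs of *Lmo2* and *Mef2c* together, genes of uncommitted progenitors, and at most 1 of *Cd3g*, a chain of the T-cell receptor complex. The double-low gate held cells with at most 2 *Cd3g* UMIs and at most 1 of *Lmo2* and *Mef2c*. The *Cd3g* gate needed at least 3 *Cd3g* UMIs and none of *Il2ra*, the *Il2ra* gate at least 1 UMI of this IL-2 receptor chain. The *Ptcra*/*Lef1*/*Bcl11b* gate needed at least 2 UMIs of these 3 genes of the T lineage, and the *Rora*/*Klrd1*/*Ncr1* gate at least 2 of these 3 genes of innate lymphoid and natural killer cells.

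The gates held 428, 381, 327, 738, 451 and 38 cells in FL001, in the order above, and 724, 1134, 873, 1668, 501 and 33 cells in FL002. A cell could be in several gates, as 565 cells of FL001 and 829 of FL002 were. Ratios between gates leave out the cells that are in both, while the level of a gate keeps all its cells. With 1 library for each row of values there is no replicate check, so no test was made between gates. Values carry exact 95% intervals, Poisson for levels, binomial for shares and conditional binomial for ratios, all of which cover counting error only.

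The gates were checked against marker lists of blood lineages. Summed levels of 6 progenitor markers (*Cd34*, *Flt3*, *Kit*, *Meis1*, *Hlf*, *Mecom*) were 525 and 495 CPM in the *Lmo2*/*Mef2c* gate of FL001 and FL002 and 67.6 to 88.8 CPM in the *Cd3g* and *Ptcra*/*Lef1*/*Bcl11b* gates. Summed levels of 8 T-lineage markers were 49.1 and 64.0 CPM in the *Lmo2*/*Mef2c* gate and 1370 and 1397 CPM in the *Ptcra*/*Lef1*/*Bcl11b* gate, whose rule uses 1 of the 8, *Bcl11b*. *Dntt* was at 0 in that gate of FL002. Summed levels of 9 innate lymphoid and natural killer markers were 1678 and 1497 CPM in the *Rora*/*Klrd1*/*Ncr1* gate and at most 634 CPM elsewhere, with *Eomes* at 0 in that gate. The same gate had T-lineage markers at 734 and 698 CPM and progenitor markers at 132 and 204 CPM, so its transcripts were mixed. Myeloid cells were present too, since the 6 myeloid markers summed to 2305 and 1548 CPM in the *Lmo2*/*Mef2c* gate and to 2394 and 877 CPM in the double-low gate, against 27.7 to 240.2 CPM in the *Cd3g*, *Il2ra* and *Ptcra*/*Lef1*/*Bcl11b* gates. The 6 megakaryocyte and erythroid markers summed to 707 and 311 CPM in the *Lmo2*/*Mef2c* gate, to 257 and 43.4 CPM in the double-low gate and to between 11.8 and 92.6 CPM in the other gates, and their part in the differences of the Runx genes between gates was not tested. B-lineage markers summed to at most 78.3 CPM in any gate.

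FL001 held 16320118 UMIs in all and FL002 held 22651783. Cells of FL001 were deeper, with a median of 7722 UMIs against 4752, and the range over single cells was 1559 to 27025 UMIs in the former and 1510 to 17589 UMIs in the latter. The libraries shared 10 barcodes that were kept as cells in both. Barcodes with at most 100 UMIs, taken as nearly empty droplets, held *Runx1* at 97.0 and 150.3 CPM, *Runx2* at 13.2 and 12.5 CPM, *Runx3* at 46.3 and 89.0 CPM and *Cbfb* at 118 and 113 CPM. How much of a gate's level came from free RNA was not tested.

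*Runx1*, the paralog with the most UMIs in both libraries, kept a similar level over 5 gates of FL001 and ran upward over the same gates in FL002. In FL001 its level was 121 CPM in the *Lmo2*/*Mef2c* gate, 108 in the double-low gate, 123.5 in the *Cd3g* gate, 126 in the *Il2ra* gate, 130.4 in the *Ptcra*/*Lef1*/*Bcl11b* gate and 22.0 in the *Rora*/*Klrd1*/*Ncr1* gate. In FL002 the same gates gave 120.0, 146, 162, 177, 188 and 113 CPM. Among the first 5 gates of FL001, only the ratios of the *Il2ra* and *Ptcra*/*Lef1*/*Bcl11b* gates over the double-low gate had intervals outside 1, at 1.16 (1.002 to 1.34) and 1.21 (1.05 to 1.41).

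In FL002 the order of *Runx1* levels was *Lmo2*/*Mef2c*, double-low, *Cd3g*, *Il2ra* and *Ptcra*/*Lef1*/*Bcl11b*, leaving aside the smallest gate. The double-low gate was 1.22-fold (1.09 to 1.36) above the *Lmo2*/*Mef2c* gate, and the *Cd3g* gate 1.11-fold (1.002 to 1.23) above the double-low gate. The next neighbours did not differ beyond counting error, with ratios of 1.09 (0.996 to 1.19) for *Il2ra* over *Cd3g* and 1.06 (0.909 to 1.24) for *Ptcra*/*Lef1*/*Bcl11b* over *Il2ra*. The latter ratio leaves out 291 cells that were in both gates and rests on 210 *Ptcra*/*Lef1*/*Bcl11b* cells without *Il2ra* UMIs. *Ptcra*/*Lef1*/*Bcl11b* over *Lmo2*/*Mef2c*, the ends of this order, gave 1.57 (1.38 to 1.78) in FL002 and 1.08 (0.947 to 1.23) in FL001.

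The level of *Runx1* in the *Lmo2*/*Mef2c* gate was the same in both libraries within counting error, with a ratio of FL002 over FL001 of 0.995 (0.875 to 1.13). In the double-low, *Cd3g*, *Il2ra* and *Ptcra*/*Lef1*/*Bcl11b* gates this ratio ran from 1.31 to 1.44, and the lower bounds ran from 1.15 to 1.28. The *Runx1* level of nearly empty barcodes differed between the libraries in the same direction, and its part in these ratios was not tested. Gate bounds are raw UMIs and cells of FL001 were deeper, so a gate need not hold like cells in both libraries. This limit applies to every ratio between the libraries, and the part of depth was not tested.

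**Figure D1:**
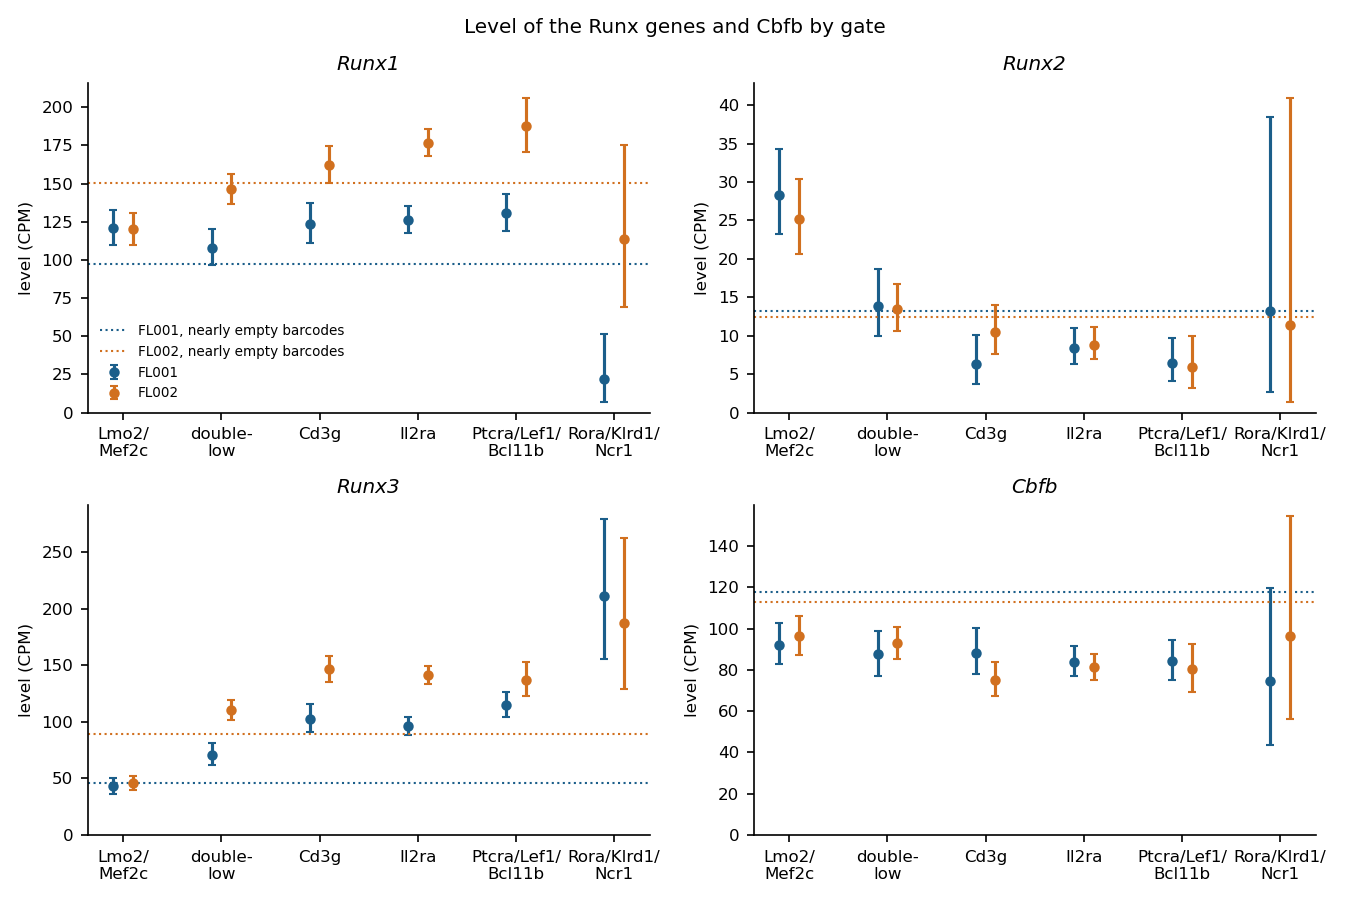
Level of each gene in CPM (vertical axis) in the 6 gates (horizontal axis), with FL001 in blue and FL002 in orange. Points are sums over the cells of a gate, bars are exact 95% Poisson intervals, and dotted lines are the levels in barcodes with at most 100 UMIs. *Runx2* was highest in the *Lmo2*/*Mef2c* gate (28.3 and 25.2 CPM), where *Runx3* was lowest (42.9 and 45.7 CPM).

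*Runx2* was a gene of the *Lmo2*/*Mef2c* gate in both libraries. Its level in FL001 was 28.3 CPM (23.2 to 34.3) in that gate, 13.8 in the double-low gate, 6.37 (3.77 to 10.1) in the *Cd3g* gate, 8.39 in the *Il2ra* gate and 6.43 in the *Ptcra*/*Lef1*/*Bcl11b* gate. FL002 gave 25.2 (20.6 to 30.4), 13.4, 10.5 (7.65 to 13.9), 8.82 and 5.91 CPM in the same gates. The *Lmo2*/*Mef2c* gate was highest in both libraries. The levels of nearly empty barcodes rest on 12 and 14 *Runx2* UMIs and were too imprecise to be set apart from the other gates.

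The first step of the order was beyond counting error in both libraries, since *Runx2* was 2.05-fold (1.42 to 3.02) and 1.88-fold (1.39 to 2.54) lower in the double-low than in the *Lmo2*/*Mef2c* gate. The second step, from the double-low to the *Cd3g* gate, was beyond counting error in FL001 only. It was 2.17-fold (1.22 to 4.01) lower there and 1.285-fold (0.882 to 1.89) lower in FL002. The *Cd3g*, *Il2ra* and *Ptcra*/*Lef1*/*Bcl11b* gates did not differ from each other beyond counting error in either library. The *Rora*/*Klrd1*/*Ncr1* gate held 3 *Runx2* UMIs in FL001 and 2 in FL002, too few to place it in the order.

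*Runx3* ran opposite to *Runx2* over the *Lmo2*/*Mef2c*, double-low and *Cd3g* gates. In FL001 its level was 42.9 CPM (36.5 to 50.1) in the *Lmo2*/*Mef2c* gate, 71.1 in the double-low gate, 103 in the *Cd3g* gate, 96.3 in the *Il2ra* gate, 115 in the *Ptcra*/*Lef1*/*Bcl11b* gate and 211 (156 to 280) in the *Rora*/*Klrd1*/*Ncr1* gate. The levels in FL002 were 45.7 (39.5 to 52.6), 110.2, 147, 141, 137 and 187 (129 to 263) CPM. The *Rora*/*Klrd1*/*Ncr1* gate was above the *Lmo2*/*Mef2c* and double-low gates beyond counting error in both libraries. Over the *Cd3g* gate it gave 1.62 (1.03 to 2.44) in FL001 and 1.19 (0.690 to 1.93) in FL002. Over the *Il2ra* gate it gave 2.47 (1.65 to 3.56) and 1.07 (0.650 to 1.66), so neither of these differences was beyond counting error in both libraries. The *Lmo2*/*Mef2c* gate was lowest in both libraries, and its level there was close to that of nearly empty barcodes in FL001 and below it in FL002.

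The double-low gate was 1.66-fold (1.34 to 2.05) above the *Lmo2*/*Mef2c* gate in FL001 and 2.41-fold (2.05 to 2.85) above it in FL002, and the *Cd3g* gate was 1.45-fold (1.21 to 1.74) and 1.33-fold (1.19 to 1.49) above the double-low gate. Levels in the *Cd3g* and *Il2ra* gates did not differ beyond counting error, with *Il2ra* over *Cd3g* at 0.935 (0.812 to 1.08) and 0.962 (0.873 to 1.06). In cells that were in only 1 gate of each pair, *Ptcra*/*Lef1*/*Bcl11b* over *Il2ra* was 1.32 (1.09 to 1.59) in FL001 and 0.898 (0.743 to 1.08) in FL002, so this pair had no common order. *Runx3* was also higher in FL002 than in FL001 in the double-low, *Cd3g* and *Il2ra* gates, by 1.55-fold, 1.43-fold and 1.47-fold, and in the *Ptcra*/*Lef1*/*Bcl11b* gate by 1.20-fold (1.03 to 1.39). In the *Lmo2*/*Mef2c* gate the libraries did not differ beyond counting error, with 1.06 (0.858 to 1.32).

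*Cbfb* varied least between gates. It ranged from 74.7 CPM (43.5 to 120) in the *Rora*/*Klrd1*/*Ncr1* gate to 92.3 CPM (82.8 to 103) in the *Lmo2*/*Mef2c* gate of FL001, and no pair of gates in that library had a ratio with an interval outside 1. In FL002 it ranged from 75.2 CPM (67.3 to 83.8) in the *Cd3g* gate to 96.4 CPM (56.2 to 154) in the *Rora*/*Klrd1*/*Ncr1* gate. In FL002 the *Cd3g* gate was 1.28-fold (1.10 to 1.48) lower than the *Lmo2*/*Mef2c* gate, and the *Il2ra* and *Ptcra*/*Lef1*/*Bcl11b* gates were 1.19-fold (1.05 to 1.35) and 1.20-fold (1.01 to 1.43) lower. The levels of nearly empty barcodes, 118 and 113 CPM, were above the level of every gate in the same library, with intervals that overlapped those of the *Lmo2*/*Mef2c* gate.

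The mix of the paralogs, that is, the share of each among the UMIs of all 3 Runx genes, does not depend on the total of a gate. *Runx1* gave 62.9% (59.2 to 66.4) of 711 Runx UMIs in the *Lmo2*/*Mef2c* gate of FL001 and 62.9% (59.5 to 66.2) of 811 in that of FL002. *Runx2* gave 14.8% and 13.2% there, and *Runx3* gave 22.4% and 23.9%. The mix of this gate was thus the same in both libraries to within 2 percentage points.

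In the *Ptcra*/*Lef1*/*Bcl11b* gate, *Runx1* gave 51.8% of 899 UMIs in FL001 and 56.8% of 784 in FL002, *Runx3* gave 45.6% (42.3 to 48.9) and 41.5% (38.0 to 44.99), and *Runx2* gave 2.56% and 1.79%. The *Cd3g* and *Il2ra* gates lay near it, with *Runx3* at 41.7% to 46.0% and *Runx2* at 2.70% to 3.63%. These mixes keep all cells of a gate and are not independent. Of the 451 and 501 *Ptcra*/*Lef1*/*Bcl11b* cells, 275 and 291 were also in the *Il2ra* gate and 168 and 198 in the *Cd3g* gate. The double-low gate lay between, with *Runx3* at 36.9% in FL001 and 40.8% in FL002 and *Runx2* at 7.17% and 4.98%. Its mix includes 75 cells of FL001 and 276 of FL002 that were also in the *Il2ra* gate. Nearly empty barcodes had *Runx1*, *Runx2* and *Runx3* at 62.0%, 8.45% and 29.6% of 142 UMIs in FL001 and at 59.7%, 4.95% and 35.3% of 283 UMIs in FL002, a mix between that of the *Lmo2*/*Mef2c* gate and those of the *Cd3g* and *Ptcra*/*Lef1*/*Bcl11b* gates.

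**Figure D2:**
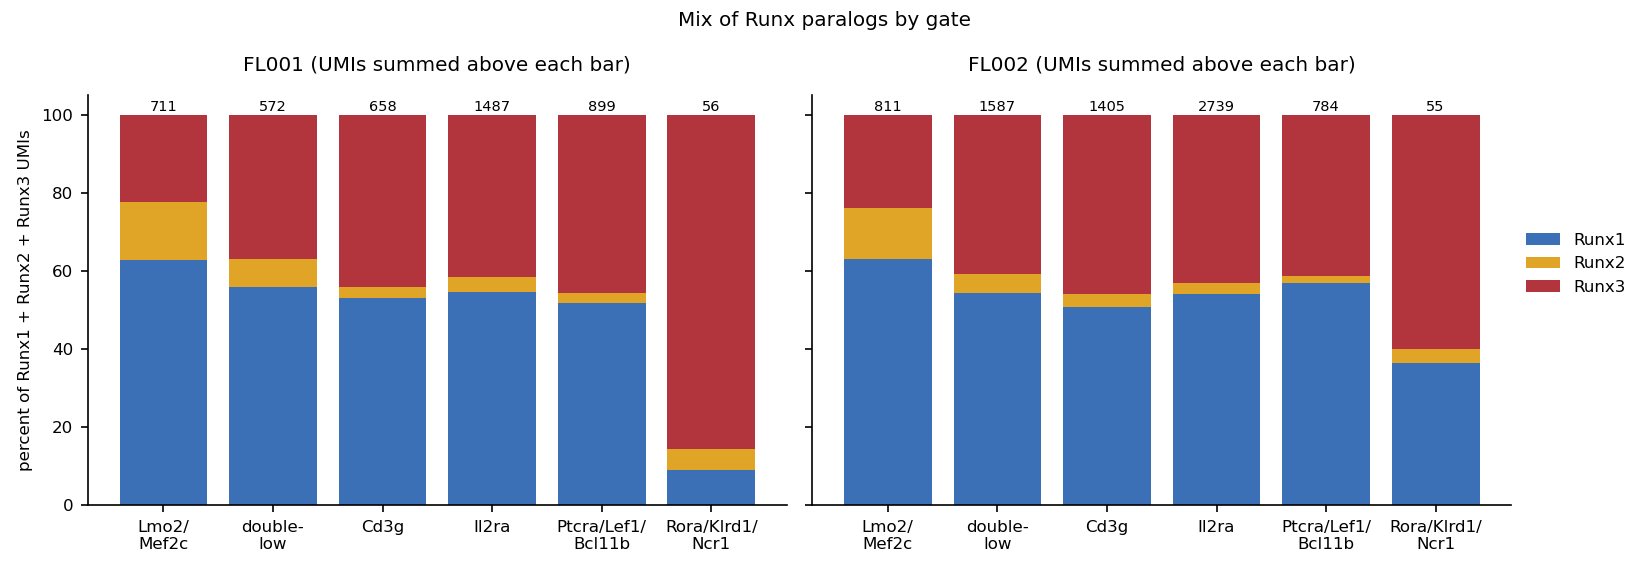
Share of *Runx1*, *Runx2* and *Runx3* (colours) among the UMIs of the 3 genes (vertical axis, percent) in each gate (horizontal axis), for FL001 on the left and FL002 on the right, with the number of Runx UMIs above each bar. *Runx3* took 22.4% and 23.9% in the *Lmo2*/*Mef2c* gate and 85.7% and 60.0% in the *Rora*/*Klrd1*/*Ncr1* gate, which rests on 56 and 55 UMIs.

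The *Rora*/*Klrd1*/*Ncr1* gate alone among the 6 gates had more *Runx3* than *Runx1* UMIs, in both libraries. In FL001 it held 5 *Runx1*, 3 *Runx2* and 48 *Runx3* UMIs, and in FL002 it held 20, 2 and 33. *Runx3* was thus 85.7% (73.8 to 93.6) of the Runx UMIs in FL001 and 60.0% (45.9 to 73.0) in FL002. The *Runx1* level differed 5.16-fold (1.88 to 17.6) between the libraries in this gate, while that of *Runx3* did not differ beyond counting error, at 0.887 (0.552 to 1.41). The *Runx1* level of 22.0 CPM (7.13 to 51.3) in FL001 lay below the 97.0 CPM of nearly empty barcodes. Every one of these cells was also in another gate. The *Cd3g* gate held 16 of the 38 cells of FL001 and 15 of the 33 of FL002, the *Il2ra* gate 12 and 8, and the double-low gate 10 and 9.

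Counted by cells without thinning, 18 of the 38 cells of this gate in FL001 had *Runx3* UMIs alone, 4 had *Runx1* and *Runx3*, 2 had *Runx2* and *Runx3*, and none had *Runx1* alone. In FL002, 13 of the 33 cells had *Runx3* alone, 7 had *Runx1* and *Runx3*, and 5 had *Runx1* alone.

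Sums of the 3 Runx genes were also set against *Cbfb*, as UMIs per UMI. This is a ratio of 3′ tags of different genes, whose capture may differ, so only its change between gates is described. In FL001 there were 2.08 (1.83 to 2.37) Runx UMIs per *Cbfb* UMI in the *Lmo2*/*Mef2c* gate, 2.20 in the double-low gate, 2.63 in the *Cd3g* gate, 2.75 in the *Il2ra* gate and 2.99 (2.62 to 3.42) in the *Ptcra*/*Lef1*/*Bcl11b* gate. In FL002 the *Lmo2*/*Mef2c* gate had 1.98 (1.76 to 2.24), within counting error of FL001, and the next gates gave 2.91, 4.25 (3.76 to 4.80), 4.02 and 4.13. The *Rora*/*Klrd1*/*Ncr1* gate had 3.29 and 3.24, with intervals from 1.89 to 6.05 and from 1.85 to 5.95 that take in every other gate of FL001. With gates set on thinned counts this gate kept 14 and 13 cells and had 1.62 and 1.78. Nearly empty barcodes had 1.33 Runx UMIs per *Cbfb* UMI in FL001 and 2.23 in FL002.

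**Figure D3:**
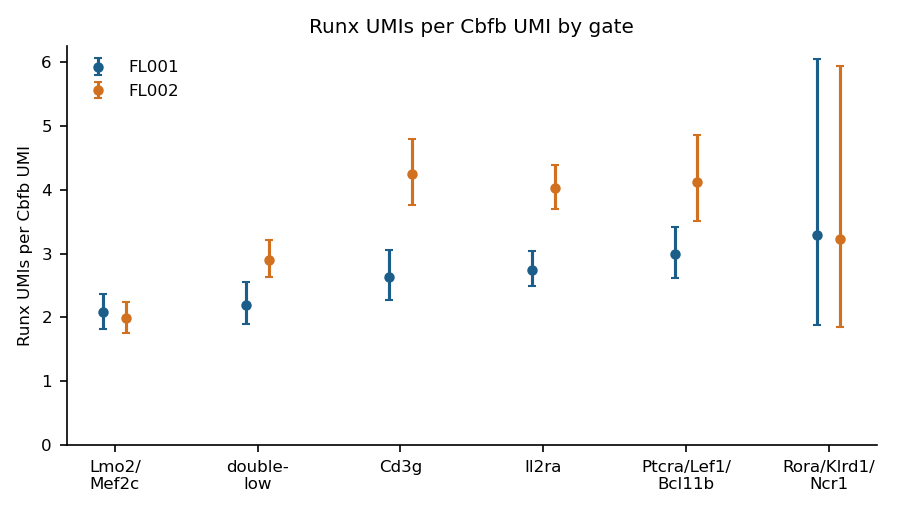
*Runx1*, *Runx2* and *Runx3* UMIs together per *Cbfb* UMI (vertical axis) in the 6 gates (horizontal axis), FL001 in blue and FL002 in orange, with exact 95% conditional binomial intervals. Both libraries started near 2 in the *Lmo2*/*Mef2c* gate, at 2.08 and 1.98, and reached 2.99 and 4.13 in the *Ptcra*/*Lef1*/*Bcl11b* gate.

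All genes were compared over 4 steps between gates, to show how common a change of the size seen in the Runx genes was. Cells in both gates of a step were left out, a gene was tested where it had at least 20 CPM in the higher gate of both libraries, and a gene was called where it differed at least 2-fold in the same direction in both. From the *Lmo2*/*Mef2c* to the *Cd3g* gate, 3.89% of 5655 genes tested were called higher and 3.09% were called lower. All 4 members were tested in this step, *Runx3* was called higher and *Runx2* lower, and *Runx1* and *Cbfb* were not called. *Runx2* reached 20 CPM only in the *Lmo2*/*Mef2c* gate, so lower was the only call open to it.

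The *Runx3* fold was 2.40 (1.97 to 2.93) in FL001 and 3.21 (2.73 to 3.79) in FL002. *Runx2* was 4.45-fold (2.68 to 7.80) lower in FL001, on 105 and 18 UMIs, and 2.41-fold (1.69 to 3.48) lower in FL002, on 107 and 46 UMIs. With each cell weighted equally, the *Runx2* difference in FL002 was 1.94-fold and would not be called. The folds of the others were 1.02 and 1.35 for *Runx1* and 0.958 and 0.781 for *Cbfb*.

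**Figure D4:**
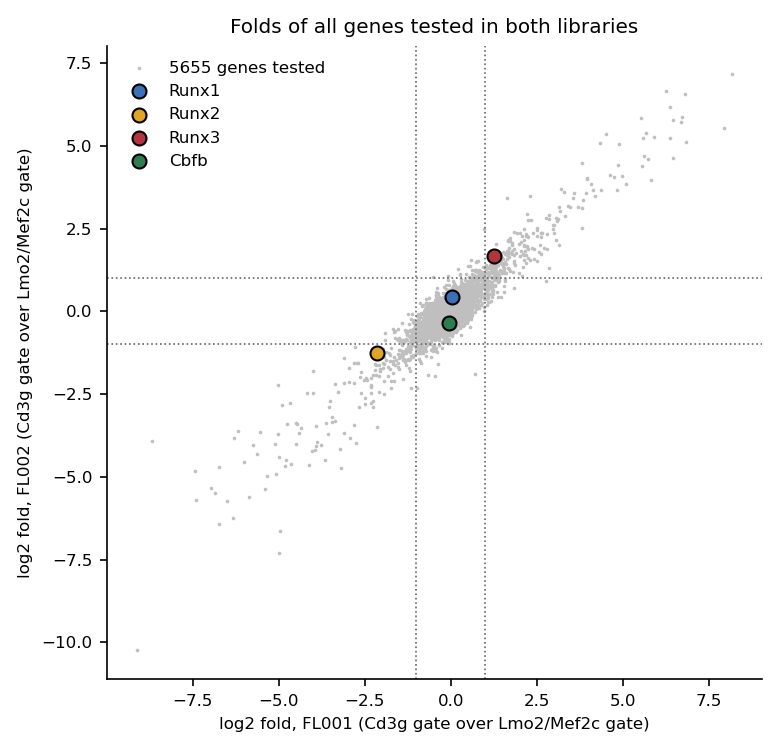
Log2 fold of the *Cd3g* gate over the *Lmo2*/*Mef2c* gate in FL001 (horizontal axis) and FL002 (vertical axis) for the 5655 genes tested (grey) and the 4 members (colours), with 0 UMIs set to 3. Dotted lines mark 2-fold. *Runx3* lies past 2-fold on the higher side at 1.26 and 1.68, *Runx2* on the lower side at -2.15 and -1.27, and *Runx1* and *Cbfb* lie near the centre.

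From the *Lmo2*/*Mef2c* to the *Ptcra*/*Lef1*/*Bcl11b* gate, 5.55% of 5745 genes tested were called higher and 4.06% lower. *Runx3* was again called higher, 2.71-fold (2.24 to 3.27) in FL001 and 3.01-fold (2.51 to 3.62) in FL002, and *Runx2* lower, 4.40-fold (2.78 to 7.25) and 4.25-fold (2.43 to 8.04). *Runx2* again reached 20 CPM only in the first gate, which fixed the direction of its call in advance. *Cbfb* was 0.912-fold and 0.833-fold. This step shares the cells of its first gate with the step above, and the 2 are not independent.

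From the *Cd3g* to the *Ptcra*/*Lef1*/*Bcl11b* gate, 1.25% of 5443 genes tested were called higher and 0.459% lower, and no member was called. The second gate kept 283 and 303 cells in this step, of which 275 and 291 had *Il2ra* UMIs, while the *Cd3g* gate has none by its rule. Differences with *Il2ra* and with *Ptcra*, *Lef1* and *Bcl11b* can thus not be told apart in this step. *Runx1* gave 1.11 (0.918 to 1.35) and 1.22 (1.05 to 1.42), *Runx3* gave 1.22 (0.989 to 1.503) and 0.949 (0.802 to 1.12), and *Cbfb* gave 0.903 and 1.10. *Runx2* was under 20 CPM in both gates and was not tested. It rested on 9 and 14 UMIs in FL001 and on 42 and 10 in FL002, where it was 1.70-fold lower with an interval of 0.841 to 3.81, so a further difference in this step was not detectable at this depth.

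From the *Ptcra*/*Lef1*/*Bcl11b* to the *Rora*/*Klrd1*/*Ncr1* gate, 3.66% of 5689 genes tested were called higher and 3.25% lower, in a comparison that rests on 28 cells of each library in the second gate. In these cells 3 *Runx2* UMIs made 17.6 CPM in FL001 and 2 made 14.3 CPM in FL002. A gene with 0 UMIs there was set to 3, which is near the bound of 20 CPM. Such a gene could be called lower only from well above that bound, which limits the share called lower. No member was called. *Runx1* was 11.2-fold (3.09 to 92.9) lower in FL001, on 463 and 2 UMIs, and 1.89-fold (1.11 to 3.48) lower in FL002, on 439 and 14 UMIs. *Runx3* gave 1.28 (0.812 to 1.94) and 1.36 (0.875 to 2.03) in the same cells, and *Runx2* was not tested.

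Levels were also taken in finer bins of *Cd3g* UMIs, in cells without *Il2ra* UMIs. *Runx3* in FL001 was at 48.3 CPM (42.2 to 55.0) in cells with no *Cd3g* UMI, 79.9 (64.2 to 98.4) with 1 to 2, 109.9 with 3 to 5, 99.03 with 6 to 9 and 102 (88.7 to 117) with 10 or more. FL002 gave 66.8 (60.7 to 73.3), 90.7 (77.6 to 105), 165 (140 to 194), 133 and 145 (131 to 161) CPM. The level was thus higher at 1 to 2 UMIs than at none in both libraries, and did not climb beyond 3 to 5 UMIs.

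*Runx2* in these bins was at 23.8 (19.6 to 28.7), 17.1, 8.62, 13.7 and 4.83 (2.32 to 8.89) CPM in FL001 and at 20.7 (17.4 to 24.5), 13.7, 9.002, 15.4 and 9.23 (5.91 to 13.7) CPM in FL002. The bins of 3 to 5 and 6 to 9 *Cd3g* UMIs rest on 4 and 4 *Runx2* UMIs in FL001 and on 8 and 14 in FL002, so the inner bins are imprecise, but the intervals of the first and last bins did not overlap in either library. *Cbfb* ran from 98.7 CPM (91.3 to 107) to 72.7 CPM (62.7 to 83.8) between the ends of the series in FL002 and from 93.8 to 83.6 CPM, with overlapping intervals, in FL001.

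**Figure D5:**
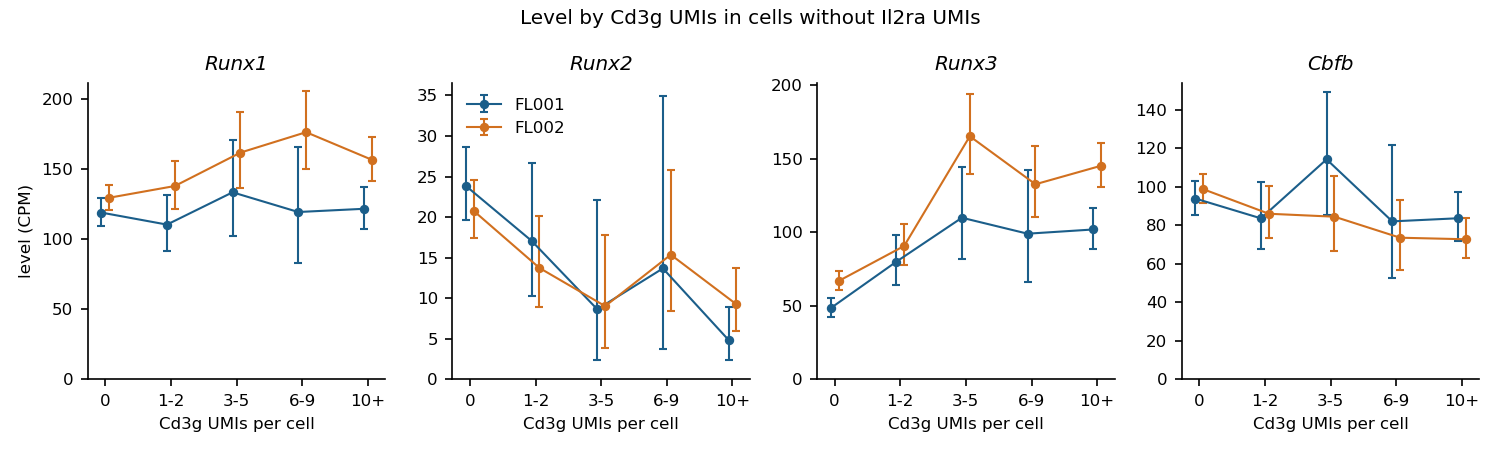
Level in CPM (vertical axis) of each gene in cells without *Il2ra* UMIs, by the number of *Cd3g* UMIs in the cell (horizontal axis), FL001 in blue and FL002 in orange, with exact 95% Poisson intervals. *Runx3* went from 48.3 and 66.8 CPM at no *Cd3g* UMI to 102 and 145 CPM at 10 or more, while *Runx2* went from 23.8 and 20.7 to 4.83 and 9.23 CPM.

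Within the *Lmo2*/*Mef2c* gate, *Runx3* was lowest in cells that also had at least 2 UMIs of *Meis1*, *Hlf* and *Mecom*, transcription factors of early stem and progenitor cells. These were 122 cells in FL001 and 117 in FL002. Their *Runx3* level was 21.7 CPM (13.4 to 33.2) and 30.0 CPM (18.3 to 46.3), against 50.4 and 48.6 CPM in the rest of the gate, ratios of 2.32 (1.46 to 3.87) and 1.62 (1.02 to 2.72). *Runx2* did not follow, with 25.8 and 30.0 CPM in the *Meis1*/*Hlf*/*Mecom* cells and 29.2 and 24.3 CPM in the rest. In these cells *Runx3* was 13.46% and 16.7% of the Runx UMIs and *Runx1* 70.5% and 66.7%.

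Myeloid transcripts moved with the same gates, so the genes were also measured in all cells with at least 5 UMIs of *Mpo*, *Elane*, *Prtn3* and *Ctsg*, which encode granule proteins of neutrophil precursors. In these 317 and 369 cells *Runx2* was at 19.9 CPM (15.3 to 25.4) and 25.9 CPM (20.2 to 32.6), and *Runx3* at 49.0 and 46.6 CPM. The intervals of both overlapped those of the *Lmo2*/*Mef2c* gate, and the part of myeloid cells in the differences between gates was not tested. Cells with at least 3 UMIs of *Pf4*, *Gata1* and *Itga2b*, genes of megakaryocyte and erythroid cells, numbered 33 and 36. They had 3 *Runx2* UMIs in FL001 and none in FL002, with an interval up to 15.75 CPM, and *Runx3* at 70.0 CPM (44.8 to 104) and 137 CPM (93.4 to 193).

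Within the *Il2ra* gate, outside the *Ptcra*/*Lef1*/*Bcl11b* gate, cells with a UMI of *Trdc*, the constant gene of the T-cell receptor delta chain, were compared with cells without. In FL002, *Runx1* was at 203 CPM (186 to 222) in 533 cells with *Trdc* and 158 CPM (147 to 170.0) in 844 cells without, a ratio of 1.29 (1.15 to 1.44). FL001 gave 134 and 117 CPM, a ratio of 1.14 (0.953 to 1.36). *Runx3* gave ratios of 1.15 (1.01 to 1.31) in FL002 and 1.02 (0.822 to 1.26) in FL001, so neither difference was beyond counting error in both libraries. Having *Il2ra* UMIs made no difference beyond counting error to any member within the *Ptcra*/*Lef1*/*Bcl11b* gate of either library. *Runx1* there was at 131 and 129 CPM with and without *Il2ra* in FL001 and at 190 and 185 CPM in FL002.

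Within the *Il2ra* gate, *Runx2* was at 17.5 CPM (11.4 to 25.6) in cells with 1 *Il2ra* UMI and at 6.20 CPM (3.74 to 9.69) in cells with 4 or more in FL001, and at 12.4 CPM (8.61 to 17.2) and 6.10 CPM (3.42 to 10.1) in FL002, where the intervals overlapped. *Runx1* had overlapping intervals in both libraries, at 198 CPM (181 to 217) with 4 or more and 169 CPM (154 to 185) with 1 *Il2ra* UMI in FL002, and at 134 and 115 CPM in FL001. Along the summed UMIs of *Ptcra*, *Lef1* and *Bcl11b*, *Runx3* went from 68.6 CPM at none to 134 CPM (114 to 157) at 2 to 3 and 105 CPM (92.7 to 119) at 4 or more in FL001. In FL002 it went from 108 CPM at none to 142 and 129 CPM.

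Shares of cells with a UMI were compared after thinning each cell to 1500 UMIs. At this depth *Runx3* was found in 4.44% (2.69 to 6.85) of the cells of the *Lmo2*/*Mef2c* gate in FL001 and 14.4% (10.8 to 18.7) of those of the *Cd3g* gate. FL002 gave 5.52% (3.98 to 7.45) and 19.9% (17.3 to 22.7). Unthinned, the shares were 27.1% and 51.1% in FL001, at median depths of 8014 and 7878 UMIs, and 21.3% and 47.1% in FL002, at 5650 and 4386 UMIs. The order of these gates was the same in level, thinned share and unthinned share.

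*Runx2* was found in 3.505% (1.98 to 5.72) and 4.01% (2.70 to 5.70) of thinned cells of the *Lmo2*/*Mef2c* gate and in 1.22% (0.334 to 3.10) and 1.49% (0.795 to 2.53) of those of the *Cd3g* gate, on 4 and 13 cells. *Runx1* was found in 18.0% and 15.9% of thinned cells of these gates in FL001 and in 17.4% and 23.8% in FL002, and *Cbfb* in 13.3% and 13.46%, and in 13.7% and 9.97%. In the double-low gate, *Runx2* was found in 3.94% (2.22 to 6.41) of thinned cells in FL001 and 1.76% (1.08 to 2.71) in FL002. The thinned share of FL001 thus did not show the *Runx2* difference in level between the *Lmo2*/*Mef2c* and double-low gates. No gate can be taken to lack *Runx1* or *Cbfb*, so the share that free RNA gives cannot be read from another cell type here. Only the differences between gates are read.

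*Runx1* and *Runx3* were compared in the same thinned cells. In the *Il2ra* gate of FL002, the largest gate, *Runx3* was found in 19.9% (16.3 to 24.0) of 437 cells with *Runx1* and in 18.3% (16.2 to 20.6) of 1231 cells without. The *Cd3g* gate gave 24.5% (18.8 to 30.9) and 18.5% (15.6 to 21.7) in FL002, and 9.62% (3.20 to 21.0) and 15.3% (11.2 to 20.1) in FL001. The 2 libraries differed in direction in this gate and the intervals overlapped. Unthinned, cells with UMIs of both *Runx1* and *Runx3* and none of *Runx2* were 12.2% of the *Lmo2*/*Mef2c* gate and 30.6% of the *Cd3g* gate in FL001, and 9.53% and 24.5% in FL002. Cells with all 3 paralogs were 4.67% and 1.66% of the *Lmo2*/*Mef2c* gate in FL001 and FL002 and 2.14% and 0.802% of the *Cd3g* gate.

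Known partners and cofactors of Runx proteins were followed over the same steps. Of 20 listed, among them the Tle corepressors, histone deacetylases and acetyltransferases, 15 were tested from the *Lmo2*/*Mef2c* to the *Cd3g* gate, where 1 was called higher and 1 lower, beside 3.89% and 3.09% of all genes tested. *Ets1*, which binds DNA together with *Runx1*, was higher, at 4.86 and 21.9 CPM in FL001 and 10.6 and 34.8 CPM in FL002. *Gata2*, a progenitor factor, was lower, at 39.7 and 2.48 CPM in FL001 and 32.2 and 9.31 CPM in FL002. *Ets1* was under 20 CPM in the first gate and *Gata2* in the second, so each could be called in 1 direction only. The median log2 fold of the 15 was -0.09 in FL001 and 0.12 in FL002, against -0.02 and -0.01 for all genes tested.

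From the *Lmo2*/*Mef2c* to the *Ptcra*/*Lef1*/*Bcl11b* gate, *Ets1* and the corepressor *Tle3* were called higher and *Gata2* lower of 15 tested, beside 5.55% and 4.06% of all genes. *Tle3* was at 12.5 and 34.7 CPM in FL001 and at 12.7 and 42.9 CPM in FL002. It was tested only through the second gate and could only be called higher, and such a limit applies to genes like it in every step. None of 15 was called from the *Cd3g* to the *Ptcra*/*Lef1*/*Bcl11b* gate. From there to the *Rora*/*Klrd1*/*Ncr1* gate, *Myb*, a factor of progenitors and early T cells, was lower, 2.09-fold in FL001 and 5.09-fold in FL002, and no other of 13 tested was called, beside 3.25% of all genes called lower.

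Genes described as Runx targets in T and innate lymphoid cells were called higher in the first step. Of 20 listed, 10 were tested from the *Lmo2*/*Mef2c* to the *Cd3g* gate and all 10 of these were called higher, beside 3.89% of all genes tested. Their median log2 fold was 3.49 in FL001 and 3.38 in FL002, against -0.02 and -0.01 for all genes. *Ptcra* and *Bcl11b*, which are themselves genes of a gate, were 2 of the 10. *Cd3e*, another chain of the T-cell receptor complex, went from 1.62 to 76.1 CPM in FL001 and from 3.77 to 79.1 CPM in FL002. *Thy1*, a surface protein of T cells, went from 2.97 to 93.7 CPM and from 5.18 to 88.8 CPM. *Bcl11b* was at 0 UMIs in the *Lmo2*/*Mef2c* gate of FL002. Genes as low as these in the first gate were tested only through the second, so the bound of 20 CPM fixed their direction in advance. The same limit applies to such genes in the later steps. Such a list marks the lineage of the gates, and these counts do not bear on whether Runx proteins act on the genes.

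From the *Cd3g* to the *Ptcra*/*Lef1*/*Bcl11b* gate, 6 of 11 tested were called higher, of which *Ptcra* and *Bcl11b* belong to the rule of the gate, and *Gzmb* was called lower, beside 1.25% and 0.459% of all genes. *Rag1*, which cuts T-cell receptor genes, was 13.8-fold and 6.38-fold higher, and *Itgae*, an integrin chain, 5.21-fold and 5.11-fold. *Gzmb*, a protease of cytotoxic granules, was 3.06-fold and 3.34-fold lower, and it is named here outside the rule for named genes, after its values were seen. From there to the *Rora*/*Klrd1*/*Ncr1* gate, 3 of 13 tested were called higher and 5 lower, beside 3.66% and 3.25% of all genes. *Ptcra* and *Bcl11b*, which belong to the rule of the first gate, were among the 5, and without them 3 of 11 were called higher and 3 lower. *Gzmb* went from 42.9 to 1773 CPM in FL001 and from 21.4 to 1369 CPM in FL002, and *Il2rb*, an IL-2 and IL-15 receptor chain, had 5 and 3 UMIs in the second gate and 1 and 2 in the first.

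From the *Lmo2*/*Mef2c* to the *Ptcra*/*Lef1*/*Bcl11b* gate, 9 of 10 tested of these targets were called higher and none lower, beside 5.55% and 4.06% of all genes. *Ptcra* and *Bcl11b*, which belong to the rule of the second gate, were among the 9, and without them 7 of 8 were called higher. *Cd3e* was 74.7-fold and 32.9-fold higher, and *Thy1* 47.8-fold and 29.0-fold.

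Genes described as Runx targets in progenitor and myeloid cells were called lower in the same step. Of 15 listed, 9 were tested from the *Lmo2*/*Mef2c* to the *Cd3g* gate, 7 were called lower and none higher, beside 3.09% and 3.89% of all genes. Their median log2 fold was -2.33 in FL001 and -1.56 in FL002, with the median of all genes as given above. *Pf4*, a platelet chemokine, had 2184 and 3 UMIs in the first and second gate of FL001, and 1168 and 1 in those of FL002. *Mpo* was 22.2-fold and 10.5-fold lower, and *Meis1* 5.02-fold and 5.51-fold lower. Genes under 20 CPM in the second gate, *Pf4* and *Meis1* among them, were tested only through the first, so their direction was fixed in advance. The same limit applies to such genes of this list in the other steps. Of 8 tested from the *Lmo2*/*Mef2c* to the *Ptcra*/*Lef1*/*Bcl11b* gate, 7 were called lower, beside 4.06% of all genes. Among them were *Mpo*, 107.9-fold and 20.7-fold lower, and *Tal1*, a progenitor factor, 6.23-fold and 10.5-fold lower. From the *Cd3g* to the *Ptcra*/*Lef1*/*Bcl11b* gate 2 of 5 tested were called lower, beside 0.459% of all genes. These were *Mpo* and *Itga2b*, an integrin chain of megakaryocytes, and from there to the *Rora*/*Klrd1*/*Ncr1* gate none of 3 was called. This list, too, marks the lineage of the gates, and its counts do not bear on whether Runx proteins act on the genes.

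The genes whose levels over the 6 gates were most like each member are given by Pearson's r of log2(CPM + 10) within each library, among genes with at least 50 CPM in some gate of both libraries. The gates share cells, so these are 6 points that are not independent. For *Runx2*, *Tmem5* (0.98 and 0.98), *Erp29* (0.96 and 0.98) and *Zyx* (0.96 and 0.97) led 3465 genes, followed by *Lmo2* and *Mef2c*, which define the first gate. For *Runx3*, *mt-Co2* (0.99 and 0.98), *Tma7* (0.98 and 0.98), *Arhgap5* (0.99 and 0.97), *Zbtb16* (0.99 and 0.97), a transcription factor of innate-like lymphocytes, and *mt-Atp6* (0.99 and 0.97) led 3464 genes.

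For *Runx1*, *Chchd7* (0.97 and 0.96), *Mapk1ip1l* (0.95 and 0.98), *Cdk5rap3* (0.94 and 0.97), *Srpk2* (0.97 and 0.93) and *Phf3* (0.93 and 0.96) were most alike. For *Cbfb*, whose level hardly varied, *Eef2* (0.93 and 0.96), *Stra13* (0.92 and 0.91), *Cnih1* (0.90 and 0.95), *Hnrnpr* (0.90 and 0.91) and *Sumo2* (0.90 and 0.92) were. The median r of all genes compared lay between -0.14 and 0.17 for the 4 members and both libraries.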

How the data were processed

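The deposited tables hold raw UMI counts per gene and barcode, which the authors made from 10X Chromium 3′ libraries with CellRanger, whose version was not given in the sources used here. The labels name mm9. A barcode was kept as a cell from 1500 UMIs and 500 genes upward, if mitochondrial genes gave no more than 10% of its UMIs. Counts were summed over gates, and no normalisation beyond the total was applied. A gene with 0 UMIs was set to a floor of 3 UMIs for fold changes. The members and lists were chosen with earlier results of these data known. Named genes were the 4 members, the 5 genes most like each and, per list and step, up to 4 called genes with the largest folds. The call rule was tested on simulated data and did worst in the step to the *Rora*/*Klrd1*/*Ncr1* gate. There it missed the most changed genes and also called some unchanged ones. A doublet caller (Scrublet) marked 0.391% and 0.0244% of cells and was not used to remove cells. Python 3.11.15, numpy 2.4.6, scipy 1.17.1, pandas 2.3.3, scanpy 1.11.5 and matplotlib 3.10.9 were used. Promoter windows were RefSeq's and gene positions GENCODE's. Alternatives covered gate bounds, thinning, the cell threshold, mitochondrial limit, shared barcodes, doublet scores, weighting, fold and minimum level.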

Additional observations from a re-analysis of the deposited data

How the results depend on the processing

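The 5% mitochondrial limit, the CellRanger 2 cell threshold, leaving out shared barcodes and leaving out the top 5% by doublet score each kept 128 of 128 values within their intervals, and no alternative run reversed a call. With gates set on thinned counts, the *Runx3* share of Runx UMIs was 37.8% and 32.8% in the *Ptcra*/*Lef1*/*Bcl11b* gate of FL001 and FL002 and 27.7% in the *Lmo2*/*Mef2c* gate of FL002. Runx UMIs per *Cbfb* UMI were then 2.62 in the *Ptcra*/*Lef1*/*Bcl11b* gate of FL001, 4.51 in the *Il2ra* gate of FL002, and 1.62 and 1.78 in the *Rora*/*Klrd1*/*Ncr1* gate. The log2 folds under the same setting were, in FL001, 0.24 for *Cbfb* from the *Cd3g* to the *Ptcra*/*Lef1*/*Bcl11b* gate and 1.22 for *Runx3* from there to the *Rora*/*Klrd1*/*Ncr1* gate. In FL002 they were 0.63 for *Runx1* from the *Lmo2*/*Mef2c* to the *Cd3g* gate, 0.29 for *Runx2* and -0.39 for *Runx3* from there to the *Ptcra*/*Lef1*/*Bcl11b* gate, and 0.95 for *Runx1* and 1.11 for *Runx3* from the *Lmo2*/*Mef2c* to the *Ptcra*/*Lef1*/*Bcl11b* gate. Raising gate bounds by 1 UMI gave log2 folds of *Cbfb* in FL002 of -0.25 from the *Cd3g* to the *Ptcra*/*Lef1*/*Bcl11b* gate and 1.03 from there to the *Rora*/*Klrd1*/*Ncr1* gate. From the *Cd3g* to the *Ptcra*/*Lef1*/*Bcl11b* gate, the main log2 folds were -0.15 and 0.13 for *Cbfb* in FL001 and FL002. That of *Runx2* in FL002 was -0.77, so these *Cbfb* and *Runx2* folds, none of them called, changed sign. Cells in exactly 1 gate gave 2.62 Runx UMIs per *Cbfb* UMI in the double-low gate of FL002, and this setting gave no values for the *Ptcra*/*Lef1*/*Bcl11b* and *Rora*/*Klrd1*/*Ncr1* gates. The cause of these shifts was not tested. Without thinning, 46 of 48 shares of cells moved.

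Genes at least 2-fold apart in both libraries numbered 395, 93, 393 and 552 in the steps from *Lmo2*/*Mef2c* to *Cd3g*, *Cd3g* to *Ptcra*/*Lef1*/*Bcl11b*, *Ptcra*/*Lef1*/*Bcl11b* to *Rora*/*Klrd1*/*Ncr1* and *Lmo2*/*Mef2c* to *Ptcra*/*Lef1*/*Bcl11b*. A minimum of 50 CPM, which tests fewer genes, gave 206, 45, 177 and 281. Under it *Runx2*, at most 28.3 CPM in any gate, is not tested and both of its calls end. A 1.5-fold rule gave 726, 246, 907 and 989. A single library gave 527 to 607, 144 to 254, 1281 to 1376 and 713 to 774 genes. Gates were compared within each library, and no paired test over the libraries was made. Neither the library nor the gate can be told apart from the unknown times of capture. The *Rora*/*Klrd1*/*Ncr1* gate, with 38 and 33 cells, limits every value given for it.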
